A study of Drosophila melanogaster with 37 samples.

Results

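The innexins of *Drosophila melanogaster* were described across the head, the body and the gonad of both sexes. The family was taken by gene name, regardless of case, from the gene tables of the PolyA (mRNA) libraries, and all 8 names were found among 17559 genes. They were *zero population growth* (*zpg*, also called Inx4), *Inx5*, *Inx6*, *Inx2*, *Inx3*, *optic ganglion reduced* (*ogre*, also called Inx1), *Inx7* and *shaking B* (*shakB*). The study surveyed RNA of sex-specific fly samples to find circular RNAs whose back-splicing differs between females and males, and its PolyA fraction gives the level of each gene in the same tissues. There were 12 PolyA libraries, 2 replicates of each of 6 groups, which were the ovary, the testis, the female head, the male head, the female body and the male body. All came from untreated adults of the isogenic wild-type Canton-S strain, collected about a day after eclosion. According to the study's methods, the sample named testis holds the whole inner reproductive tract of the male, with the accessory glands, seminal vesicle and ejaculatory duct.

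Innexins are the proteins that build gap junctions in invertebrates. Each passes through the membrane several times, subunits assemble into a hemichannel, and hemichannels of neighbouring cells dock into a channel that lets ions and small metabolites pass. Members can mix within a channel, as *Inx2* and *Inx3* do in epithelia, or pair across it, as the germline innexin Zpg does with Inx2 of the surrounding somatic cells in fly gonads. Gap junctions of this kind couple germ cells to the soma, join epithelial and glial cells, and form electrical synapses.

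What the members share in sequence is shown by the stretch of coding sequence that holds the family's signature at the second membrane span. Each line gives 27 bases of the coding strand, from 5′ to 3′, in which the 15 capitals are the codons of the signature, taken from the RefSeq genome and annotation of Release 6 (dm6), in which each of the 8 genes held the signature once.
zpg, chr3L:6605509-6605535, minus strand: ataaccTACTATCAGTGGGTCgtgctg
Inx5, chrX:19170044-19170070, minus strand: ctgcgcTACTACCAGTGGGTCatcatc
Inx6, chrX:20269054-20269080, minus strand: ctgcgcTACTATCAGTGGGTCtttatg
Inx2, chrX:6999444-6999470, plus strand: cacaagTACTACCAGTGGGTGtgcttc
Inx3, chr3R:28855748-28855774, minus strand: cacagcTACTATCAATGGGTGccattc
ogre, chrX:6976038-6976064, minus strand: tacaccTACTACCAGTGGGTGtgcttc
Inx7, chrX:6992766-6992792, minus strand: catgcaTACTACCAGTGGGTGcccttt
shakB, chrX:20792370-20792396, minus strand: acaaaaTATTATCAATGGGTAgcgttt
All windows lie within a single coding exon. The capitals were spelled in 5 ways. *ogre*, *Inx2* and *Inx7* shared all 15 bases, *Inx5* shared 14 of them with *Inx2*, *zpg*, *Inx6* and *Inx3* shared 13, and *shakB* shared 11. The coding sequences were 1101 bases long for *zpg*, 1257 for *Inx5*, 1443 for *Inx6*, 1101 for *Inx2*, 1185 for *Inx3*, 1086 for *ogre*, 1314 for *Inx7* and 1596 for *shakB*, for which the longest of 8 annotated mRNAs was taken.

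Of the 8 genes, 6 lie on the X chromosome, and *ogre*, *Inx7* and *Inx2* are neighbours there. In the coordinates of the gene tables (dm6, Ensembl release 88), *ogre* spans chrX:6973620-6991318, *Inx7* chrX:6991612-7009869 and *Inx2* chrX:6998672-7004151, so that *Inx2* lies on the opposite strand within the *Inx7* span. RefSeq ends *Inx7* at 6993612, before *Inx2* starts, and the PolyA libraries are not stated to keep strand, so the *Inx7* level can hold reads of *Inx2* and of 2 other genes within that span, *cm* and *CR43837*. *ogre* overlaps *bou* and *CR44084* on the other strand. *bou* was at 11.2 to 35.9 TPM, and whether its reads were counted for *ogre* was not tested. *zpg* (chr3L:6604366-6606032) overlaps *CG8368* on the other strand, and *Inx3* (chr3R:28853606-28859497) overlaps *spg*. *Inx5* (chrX:19168777-19170883) holds the short *mir-4959*, *Inx6* (chrX:20267821-20269769) overlaps no gene, and *shakB* (chrX:20761071-20927050) overlaps 6.

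Values are TPM, a measure of transcripts per length that sums to 1000000 in each library and can be compared between genes of a library. TPM keeps no read counts. The coverage given with each value was not used in the tests, and the error of single values was judged from the 2 replicates. Nothing states that the replicates came from separate cultures of flies, and the p-values measure only the spread between these libraries. In 8 libraries, between 15.7 and 57.6% of the TPM went to the mitochondrial gene *mt:ATPase8*. Its value was 0 in replicate 2 of both bodies and both gonads. The TPM of the other genes depends on its level, since TPM has a fixed sum. Summed innexin TPM was higher in replicate 2 of every group. Without mitochondrial genes it was higher there too, from 142 and 163 in the male body to 68.9 and 107 in the testis (replicates 1 and 2). The cause of this rise was not tested. Libraries with the same replicate number deviated together, and a fit with this number as a block is given where it changes a call. Markers went with the labels. Genes of the eye summed to 18866 to 20449 TPM in heads and to at most 53.1 TPM elsewhere, genes of spermatocytes and spermatids to 10123 and 11124 TPM in the testis and to 2849 and 3621 TPM in the male body, and genes of the ovarian follicle to 33723 and 60874 TPM in the ovary and to 20563 and 62338 TPM in the female body. Gonad markers of the same sex were thus abundant in both body libraries, and the methods do not say whether bodies were sequenced without their gonads.

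Summed over the family, innexin mRNA was least abundant in the testis. The summed TPM of the family was 276 and 503 in the ovary and 57.5 and 106 in the testis (replicates 1 and 2), 190 and 334 in the female head and 199 and 319 in the male head, and 197 and 411 in the female body and 72.8 and 158 in the male body. Among libraries with the same number the testis had the lowest sum, also with libraries scaled by the median of ratios (118 and 116, against 137 to 383 elsewhere). The ovary had the highest sum, but not on that scale, where it had 208 and 193 and the heads had 281 to 383, nor without mitochondrial genes, where it had 402 and 520 and the heads had 473 to 592. In bulk tissue, fewer cells of a type and less RNA per cell cannot be told apart, and this holds for every level below.

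**Figure D1:**
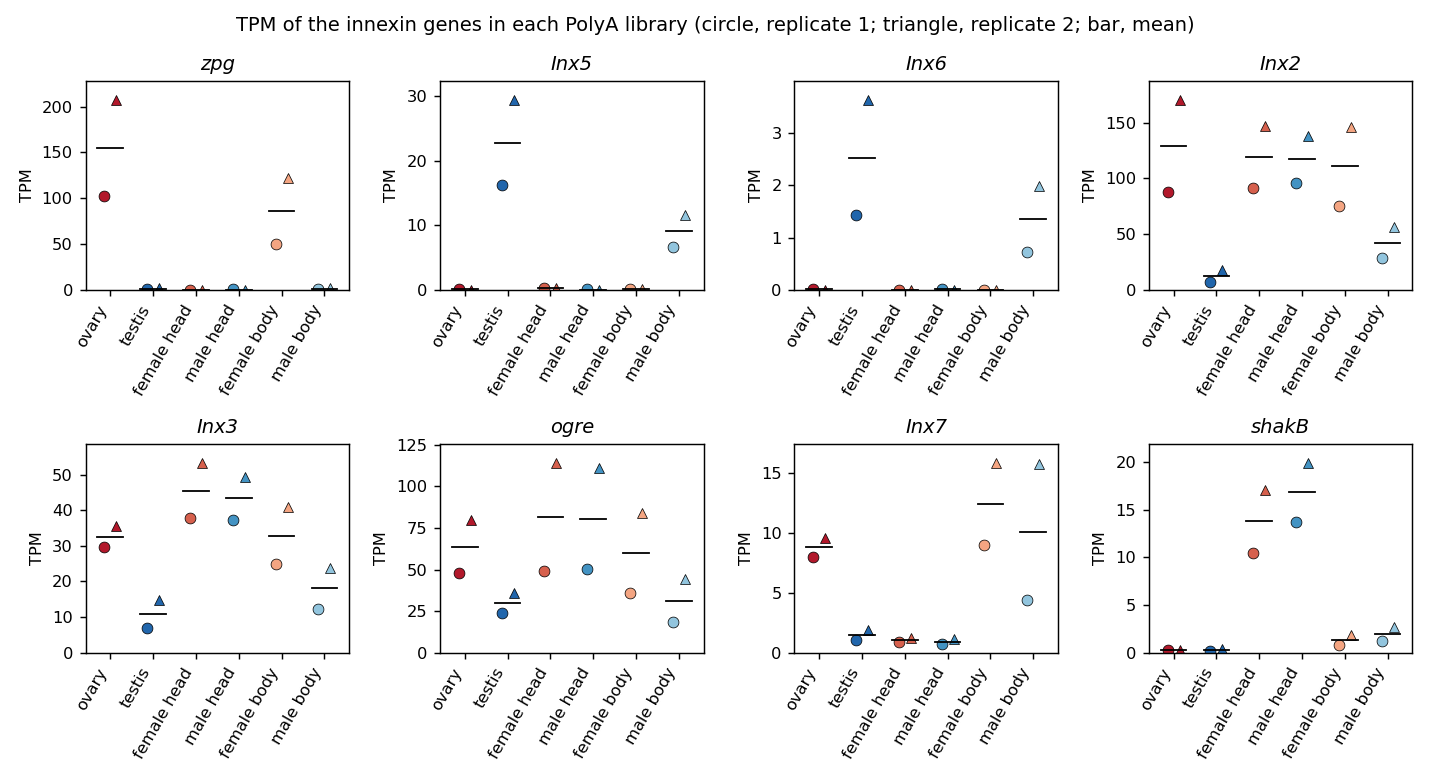
TPM of each innexin (vertical axis of each panel, starting at 0 and scaled to the gene) in the 12 PolyA libraries, with a circle for replicate 1, a triangle for replicate 2 and a bar for their mean. *zpg* is high in the ovary and the female body, *Inx5* and *Inx6* in the testis and the male body, *shakB* in both heads, and *Inx2*, *Inx3* and *ogre* are present in all groups, with both *Inx2* and *Inx3* lowest in the testis.

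The make-up of the family differed between tissues more plainly than its sum, and these shares do not depend on how libraries are scaled to each other. *zpg* made up 37.2 and 41.2% of the innexin TPM in the ovary and 2.44 and 1.65% in the testis. *Inx5* made up 0.0686 and 0.00337% in the ovary and 28.2 and 27.8% in the testis. *zpg* was thus the innexin with the largest share in the ovary, and *Inx5* had a large share in the testis and next to none in the ovary. *Inx2* held 31.7 and 33.9% in the ovary and 11.7 and 17.1% in the testis, whereas *ogre* held 17.2 and 15.9% in the ovary and 41.1 and 33.8% in the testis. In the heads the shares of the sexes lay close together, with *Inx2* at 48.2 and 44.1% in females and 48.3 and 43.1% in males. *shakB* had its highest shares there, 5.49 and 5.13% in female heads and 6.91 and 6.24% in male heads. No test was made on the shares.

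**Figure D2:**
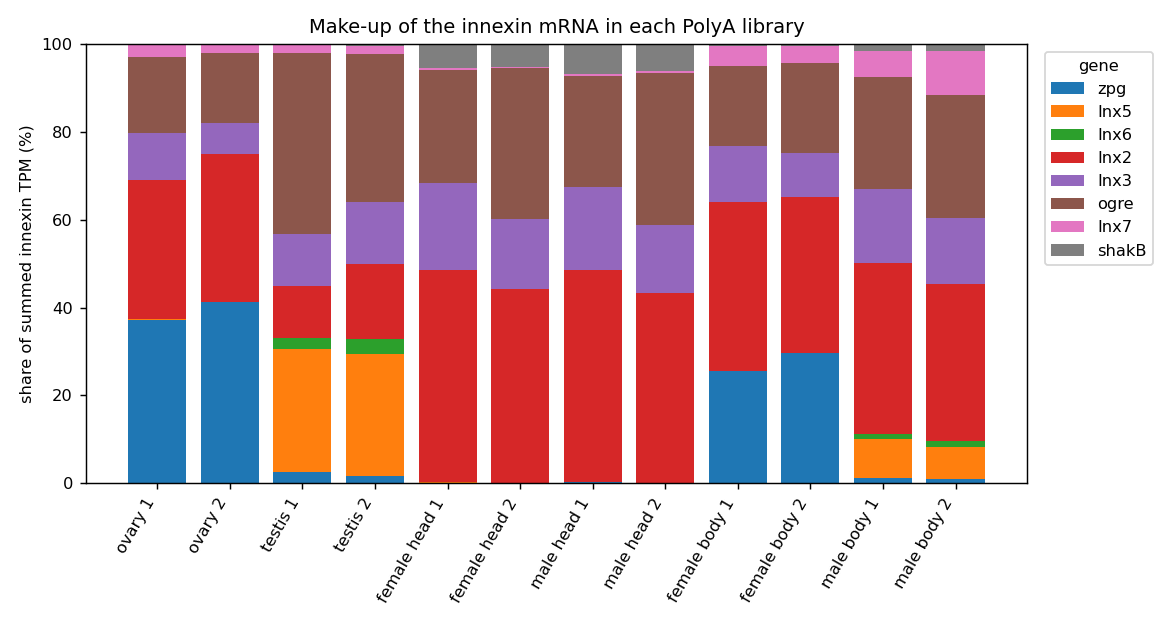
Share of each innexin in the summed innexin TPM (vertical axis, percent) of each library, as stacked bars that add to 100%. The blue segment (*zpg*) is 37.2 and 41.2% in the ovary and 25.5 and 29.6% in the female body, and the orange segment (*Inx5*) is 28.2 and 27.8% in the testis and 9.07 and 7.30% in the male body.

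*zpg* encodes the germline innexin, which early germ cells of both sexes need to survive and differentiate. Its level was 103 and 207 TPM in the ovary and 1.40 and 1.74 TPM in the testis, 50.1 and 122 TPM in the female body and 0.783 and 1.66 TPM in the male body, and 0.224 and 0.0903 TPM in the female head and 0.577 and 0.397 TPM in the male head. The ovary and female body overlapped with each other in their range, and each of their 4 libraries lay above all 8 others. Differences were tested with limma on log2(TPM + 1), with Benjamini-Hochberg adjustment over 12882 genes, and fold changes on this scale understate those of genes at low TPM. *zpg* was higher in the ovary than in the testis by 5.84 ± 0.48 (log2 fold change ± SE, adjusted p = 2.6e-06) and higher in the female body than in the male body by 5.18 ± 0.48 (adjusted p = 9.1e-06). In TPM, ovary libraries had 73.4 and 119 times the level of the testis libraries of the same number. *zpg* was also higher in the ovary than in the female head by 6.99 (adjusted p = 2.7e-06) and lower in the female head than in the female body (log2 fold change -6.10, adjusted p = 8.8e-06). Between the ovary and the female body it differed by 0.89 ± 0.48, which did not pass the test (adjusted p = 0.465).

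In the testis the low *zpg* level stood beside a high level of the overlapping gene *CG8368*, at 29.9 and 48.4 TPM in the ovary and 242 and 287 TPM in the testis. Whether reads of that gene were counted for *zpg* was not tested. The 13 genes of the germline list, chosen for their known roles in germ cells, summed to 737 and 1695 TPM in the ovary and 55.6 and 112 TPM in the testis, and to 450 and 1111 TPM in the female body and 33.6 and 61.6 TPM in the male body. Their sum was thus 13.3 and 15.2 times as high in the ovary as in the testis, and 10 of the 13 were higher and 1 lower by the test, beside 60.1% of all genes called in either direction. *otu*, *ovo*, *nos* and *vas*, which act in oogenesis and germ plasm, had the largest changes, with log2 fold changes of 6.69, 6.31, 6.06 and 4.85. At least 11 of the 13 were at 1 TPM or above in both testis libraries, against 3 in each female head library. The part of germ cell content in the *zpg* difference was not tested.

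*Inx5* had sex differences opposite in direction to those of *zpg* in gonads and bodies, while both genes were low in heads. Over all libraries their Pearson's r of log2 values was -0.39. *Inx5* was at 0.190 and 0.0169 TPM in the ovary and 16.2 and 29.4 TPM in the testis. It was at 0.205 and 0.0858 TPM in the female body and 6.61 and 11.5 TPM in the male body. In heads it was at 0.261 and 0.359 TPM in females and 0.147 and 0 TPM in males. The testis libraries lay above the male body libraries, and these above all others. *Inx5* was lower in the ovary than in the testis (log2 fold change -4.38 ± 0.32, adjusted p = 9.8e-07) and lower in the female body than in the male body (-3.09 ± 0.32, adjusted p = 1.9e-05). It was higher in the testis than in the male head by 4.42 (adjusted p = 7.4e-07) and lower in the male head than in the male body (-3.19, adjusted p = 1.2e-05). It was higher in the testis than in the male body by 1.23 ± 0.32 (adjusted p = 0.0144). That call was lost without male body replicate 1 (0.87) or testis replicate 2 (0.82). A pseudocount of 0.1 and a fit of only the libraries compared lost it too. Since the testis sample contains the whole inner tract, the tissue within it that carries *Inx5* cannot be told apart.

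*Inx6*, which is known with *Inx7* from electrical synapses of mushroom body neurons, had the lowest mean over the 12 libraries, although in the testis it exceeded *shakB*. It was at 0.0240 and 0 TPM in the ovary and 1.43 and 3.62 TPM in the testis, at 0 TPM in both female body libraries and 0.727 and 1.98 TPM in the male body, and at 0 TPM in both female head libraries and 0.0222 and 0 TPM in the male head. Its 4 libraries above 0.1 TPM were the same 4 that were highest for *Inx5*, and *Inx6* was 0.0882 and 0.123 times as abundant as *Inx5* in the testis and 0.110 and 0.172 times in the male body. Its mean of 0.650 TPM over the 12 libraries was below the minimum of 1 TPM, so 7 of the 8 innexins were tested. Without that minimum, it was lower in the ovary than in the testis (log2 fold change -1.73, adjusted p = 0.0014) and lower in the female body than in the male body (-1.18, adjusted p = 0.0155).

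*Inx2* and *Inx3* form mixed channels in epithelia, and *Inx2* is also the somatic partner of *zpg* in the gonads. *Inx2* was the most abundant innexin of the heads and the bodies. Its level was 87.6 and 170.1 TPM in the ovary and 6.72 and 18.1 TPM in the testis, 91.6 and 147 TPM in the female head and 96.0 and 138 TPM in the male head, and 75.4 and 146 TPM in the female body and 28.3 and 56.4 TPM in the male body. In TPM the testis lay below every other group, and the male body below the 4 groups that remained, whose ranges overlapped. Without mitochondrial genes, head libraries had 228 to 261 TPM and libraries of the ovary and the female body 127 to 176 TPM. With the median of ratios *Inx2* was lower in the ovary than in the female head (-1.24, adjusted p = 0.00056). Without mitochondrial genes that difference was -0.71 (adjusted p = 0.108). *Inx2* was higher in the ovary than in the testis by 3.34 ± 0.61 (adjusted p = 0.00094), which was 13.0 and 9.40 times by replicate number in TPM, and by 1.93 with libraries scaled by the median of ratios (adjusted p = 2.0e-05). It was lower in the testis than in the male head (-3.26 ± 0.61, adjusted p = 0.0011). In bodies the difference of females from males was 1.37 ± 0.61 (adjusted p = 0.0998). It passed the test once replicate number entered the fit as a block (adjusted p = 0.00040). It also passed with FPKM and without mitochondrial genes (1.30, adjusted p = 0.0082), but was 0.43 with the median of ratios (adjusted p = 0.0811).

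*Inx3* was at 29.8 and 35.5 TPM in the ovary and 6.86 and 14.9 TPM in the testis, at 37.7 and 53.4 TPM in the female head and 37.4 and 49.3 TPM in the male head, and at 25.0 and 40.8 TPM in the female body and 12.4 and 23.7 TPM in the male body. It followed *Inx2* over the 12 libraries (Pearson's r of log2 values = 0.96, a description over libraries that share their scaling), while their ratio differed in the testis. *Inx3* was 0.340 and 0.208 times as abundant as *Inx2* in the ovary and 1.02 and 0.822 times in the testis, and between 0.280 and 0.436 times in heads and bodies. *Inx3* was higher in the ovary than in the testis by 1.58 ± 0.49 (adjusted p = 0.0188) and lower in the testis than in the male head (-1.98 ± 0.49, adjusted p = 0.0062). The ovary call was lost without ovary replicate 2 (1.46, adjusted p = 0.0879), without testis replicate 1 (1.08, adjusted p = 0.153), in a fit of only the libraries compared (adjusted p = 0.0655) and with libraries scaled by the median of ratios (0.20, adjusted p = 0.464), and the head call without testis replicate 1 (-1.47, adjusted p = 0.0599).

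*ogre* is needed for the optic lobes and acts in glia and neural progenitors. Its level was 47.6 and 80.0 TPM in the ovary and 23.6 and 35.7 TPM in the testis, 48.9 and 114 TPM in the female head and 50.2 and 111 TPM in the male head, and 36.0 and 84.1 TPM in the female body and 18.5 and 44.3 TPM in the male body. Neighbouring groups overlapped all along this order in TPM, and *ogre* passed none of the 9 tests between groups without the block or another scaling. Without mitochondrial genes it was higher in heads than in bodies, in females (1.09, adjusted p = 0.0237) and in males (1.87, adjusted p = 0.00083). There it was also lower in the ovary than in the female head (-1.06, adjusted p = 0.0231) and lower in the testis than in the male head (-2.20, adjusted p = 0.00019). With the median of ratios the same differences were 1.42, 1.23, -1.57 and -1.01 and passed too. The *ogre* difference of 1.06 ± 0.67 between the ovary and the testis had an adjusted p of 0.197. It passed with the replicate block (adjusted p = 0.0016) and without mitochondrial genes (1.22, adjusted p = 0.0081). The sign of this difference turned with the median of ratios (-0.38, adjusted p = 0.298). Within a library, *Inx2* was 1.84 and 2.13 times as abundant as *ogre* in the ovary and 0.284 and 0.506 times in the testis. The testis libraries were the only 2 in which *ogre* exceeded *Inx2*.

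*Inx7* was at 8.04 and 9.59 TPM in the ovary and 1.04 and 1.89 TPM in the testis, at 0.873 and 1.21 TPM in the female head and 0.733 and 1.12 TPM in the male head, and at 9.05 and 15.9 TPM in the female body and 4.37 and 15.8 TPM in the male body. Both bodies and the ovary lay above the testis and the heads, whose ranges overlapped. *Inx7* was higher in the ovary than in the testis by 2.01 ± 0.50 (adjusted p = 0.0064), which was lost without testis replicate 1 (1.76, adjusted p = 0.0539) and was 0.89 with the median of ratios (adjusted p = 0.0141). It was higher in the ovary than in the female head by 2.27 (adjusted p = 0.0044). It was lower in the female head than in the female body (-2.68, adjusted p = 0.0023), lower in the male head than in the male body (-2.31, adjusted p = 0.0035) and lower in the testis than in the male body (-1.97, adjusted p = 0.0135). The noncoding gene *CR43837* within its span had 13.8 and 31.1 TPM in the ovary and 0.517 and 0.956 TPM in the testis, and 10.7 and 16.4 TPM in the female body and 0.384 and 0.744 TPM in the male body. *cm*, on the same strand as *Inx7*, had 19.7 and 37.4 TPM in the ovary and 4.53 and 9.98 TPM in the testis. What part of the *Inx7* level these genes and *Inx2* carry was not tested.

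*shakB* encodes the innexin of the electrical synapses of the giant fibre system, which drives the escape jump. Its level was 0.264 and 0.324 TPM in the ovary and 0.191 and 0.440 TPM in the testis, 10.4 and 17.1 TPM in the female head and 13.7 and 19.9 TPM in the male head, and 0.812 and 1.84 TPM in the female body and 1.18 and 2.65 TPM in the male body. The heads lay above the bodies and the bodies above the gonads, with no overlap between the 3 tissues. *shakB* was higher in the female head than in the female body by 2.66 ± 0.37 (adjusted p = 0.00037) and higher in the male head than in the male body by 2.64 ± 0.37 (adjusted p = 0.00017). It was lower in the ovary than in the female head (-3.48, adjusted p = 4.8e-05) and lower in the testis than in the male head (-3.74, adjusted p = 9.6e-06). The 9 genes found of the neuron list summed to 20.2 to 53.7 TPM in gonads, to 1578 to 2480 TPM in heads and to 49.9 to 158 TPM in bodies, and the part of neuron content in these differences was not tested.

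The count of innexins that differed between the sexes was highest for gonads, as was the share of all genes. Between the ovary and the testis, 5 of the 7 tested innexins passed the test, 4 of them higher and 1 lower in the ovary, beside 60.1% of all genes tested. With the replicate block, *ogre* was added and 6 of 7 passed, beside 75.6% of all genes. Between the female body and the male body, 2 of 7 passed, *zpg* higher and *Inx5* lower, beside 42.5% of all genes. With the block, *Inx2*, *Inx3* (adjusted p = 0.0088) and *ogre* (adjusted p = 0.0050) were added and 5 of 7 passed, beside 66.0%. No count is read as particular to the family. The directions of *Inx3* and *ogre* in bodies turned with the median of ratios (-0.053 and -0.013), as did that of *Inx7* (-0.39), and no direction is given for these 3 genes. That scaling lowered the median difference of all genes between the female body and the male body to -0.74, against -0.01 without it, and between the ovary and the testis to -0.67, against 0.07 without it.

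Between the female head and the male head, 0 of 7 innexins passed the limma test, and 0 of 7 had an unadjusted p under 0.05. In all, 12 genes passed there, which is 0.0932% of those tested, and 157 had an unadjusted p under 0.05. Log2 fold changes of the 7 genes lay between -0.36 ± 0.48 for *zpg* and 0.29 ± 0.32 for *Inx5*, both at under 1 TPM in every head library. *Inx2* (0.01 ± 0.61), *Inx3* (0.06 ± 0.49), *ogre* (0.00 ± 0.67), *Inx7* (0.08 ± 0.50) and *shakB* (-0.29 ± 0.37) had standard errors larger than their differences, so differences of this size were not detectable with 2 libraries a group.

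**Figure D3:**
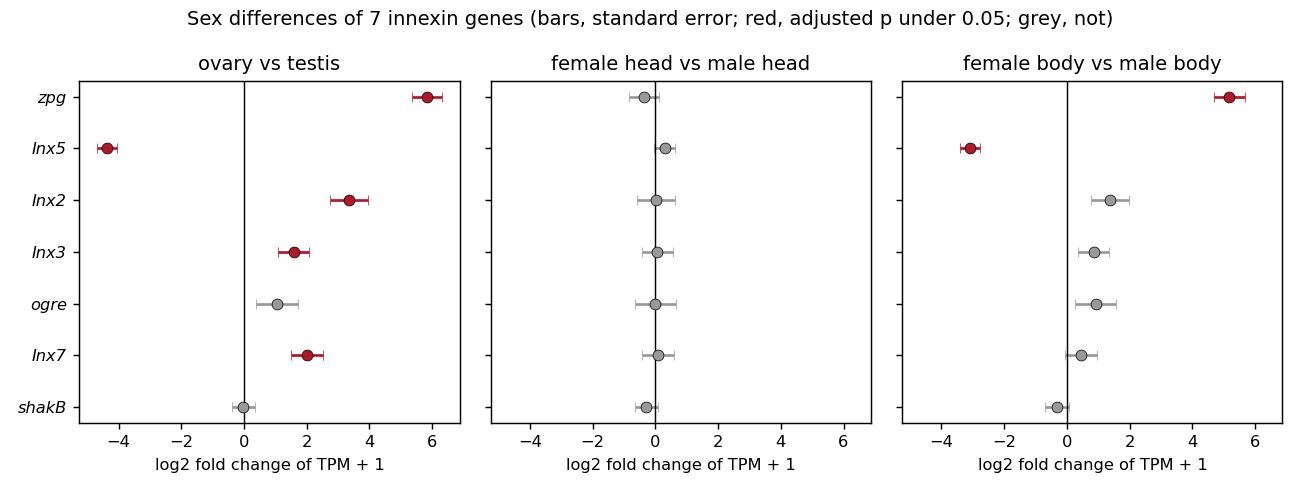
Log2 fold change of TPM + 1 (horizontal axis, positive where higher in females) of the 7 tested innexins in the gonads, heads and bodies, with bars for the standard error and red for an adjusted p under 0.05. In the gonads 5 genes are red, in the heads none, and in the bodies *zpg* (5.18) and *Inx5* (-3.09).

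The sex differences themselves were compared between tissues. The sex difference in gonads differed from that in heads for 4 of 7 innexins, beside 48.5% of all genes. These were *zpg* (difference of log2 fold changes 6.20 ± 0.68, adjusted p = 3.5e-05), *Inx5* (-4.67 ± 0.45, adjusted p = 1.4e-05), *Inx2* (3.33 ± 0.86, adjusted p = 0.0097) and *Inx7* (1.93 ± 0.71, adjusted p = 0.0483). The call of *Inx7* was lost when any 1 of the 8 libraries was left out, with values from 1.68 to 2.18 and adjusted p from 0.0619 to 0.156. It was also lost with the median of ratios (0.70, adjusted p = 0.138), with no filter on low values (adjusted p = 0.0666) and with a pseudocount of 0.1 (adjusted p = 0.0546). With the block, *Inx3* (adjusted p = 0.0022) and *ogre* (adjusted p = 0.0127) passed too, 6 of 7, beside 70.0% of all genes, although the values of both turned with the median of ratios (-0.035 and -0.55). Between bodies and heads, *zpg* (5.55 ± 0.68, adjusted p = 0.00011) and *Inx5* (-3.38 ± 0.45, adjusted p = 0.00019) passed, 2 of 7, beside 32.5% of all genes, and with the block *Inx2* (adjusted p = 0.0044) and *ogre* (adjusted p = 0.032, but -0.19 with the median of ratios) did as well, 4 of 7, beside 55.9%. Between gonads and bodies, 0 of 7 passed in limma, beside 5.36% of all genes, and *Inx5* and *Inx2* had an unadjusted p under 0.05. With the block, *Inx2* passed (1.97, adjusted p = 0.0059), beside 21.7% of all genes.

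Tissues of the same sex were then compared. The ovary differed from the female head in 3 of 7 innexins, *zpg* and *Inx7* higher and *shakB* lower, beside 47.6% of all genes. *Inx3* was lower in the ovary with the median of ratios (-1.73, adjusted p = 0.00018) and without mitochondrial genes (-1.23, adjusted p = 0.0034). The testis differed from the male head in 4 of 7, with *Inx5* higher and *Inx2*, *Inx3* and *shakB* lower, beside 56.9%, and with the block *ogre* (-1.33, adjusted p = 0.00039) made this 5 of 7, beside 74.6%. The female head differed from the female body in 3 of 7, with *zpg* and *Inx7* lower and *shakB* higher, beside 35.2%. *Inx3* was higher in the female head with the median of ratios (1.45, adjusted p = 0.00069) and without mitochondrial genes (1.13, adjusted p = 0.0070). The male head differed from the male body in 3 of 7, with *Inx5* and *Inx7* lower and *shakB* higher, beside 42.6%. With the block, *Inx2* (adjusted p = 0.00020), *Inx3* (adjusted p = 0.00093) and *ogre* (adjusted p = 0.00048) were higher in the male head too, which made 6 of 7, beside 60.2%.

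Gonads were also set against bodies of the same sex. Between the ovary and the female body, 0 of 7 innexins passed in limma and 0 of 7 had an unadjusted p under 0.05, beside 11.6% of all genes passing, and with the block 1 of 7 passed, *shakB* lower in the ovary (-0.81, adjusted p = 0.0403), beside 17.2%. Between the testis and the male body, 4 of 7 passed, beside 36.5%, with *Inx5* higher and *Inx7*, *Inx2* (-1.76, adjusted p = 0.0474) and *shakB* (-1.11, adjusted p = 0.0432) lower in the testis. With the block *Inx3* (-0.70, adjusted p = 0.0259) was added, 5 of 7, beside 59.3%, while in a limma fit of only these 4 libraries 0 of 7 passed, beside 13.6%, and *Inx2*, *Inx7* and *shakB* had an unadjusted p under 0.05. The lower level of *Inx2* in the testis lost its call without male body replicate 2 (-1.27) or testis replicate 1 (-1.10), that of *Inx7* likewise (-1.15 and -1.72), and that of *shakB* without male body replicate 2 (-0.73), testis replicate 1 (-0.97) or testis replicate 2 (-1.24).

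Levels in the gonad and in the body of the same sex were also set side by side by replicate number. *zpg* in the ovary was 206 and 170.4% of its level in the female body, the summed germline list was 164 and 153%, and the follicle list was 164 and 97.7%. *Inx5* in the testis was 245 and 255% of its level in the male body, *Inx6* was 197 and 183%, the summed list of spermatocyte and spermatid genes was 391 and 280%, and the list of accessory gland and duct genes was 384 and 296%. These percents are of TPM without scaling between libraries and change with it. Without mitochondrial genes, *Inx5* was at 19.4 and 29.7 TPM in the testis and 12.9 and 11.9 TPM in the male body. Which of these cell types the *Inx5* level goes with was not tested. *Inx2* showed another pattern, with 116 and 116% for the ovary over the female body and 23.7 and 32.1% for the testis over the male body. *Inx7* in the ovary was at 0.888 and 0.603 times its level in the female body, and in the testis at 0.237 and 0.120 times its level in the male body.

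**Figure D4:**
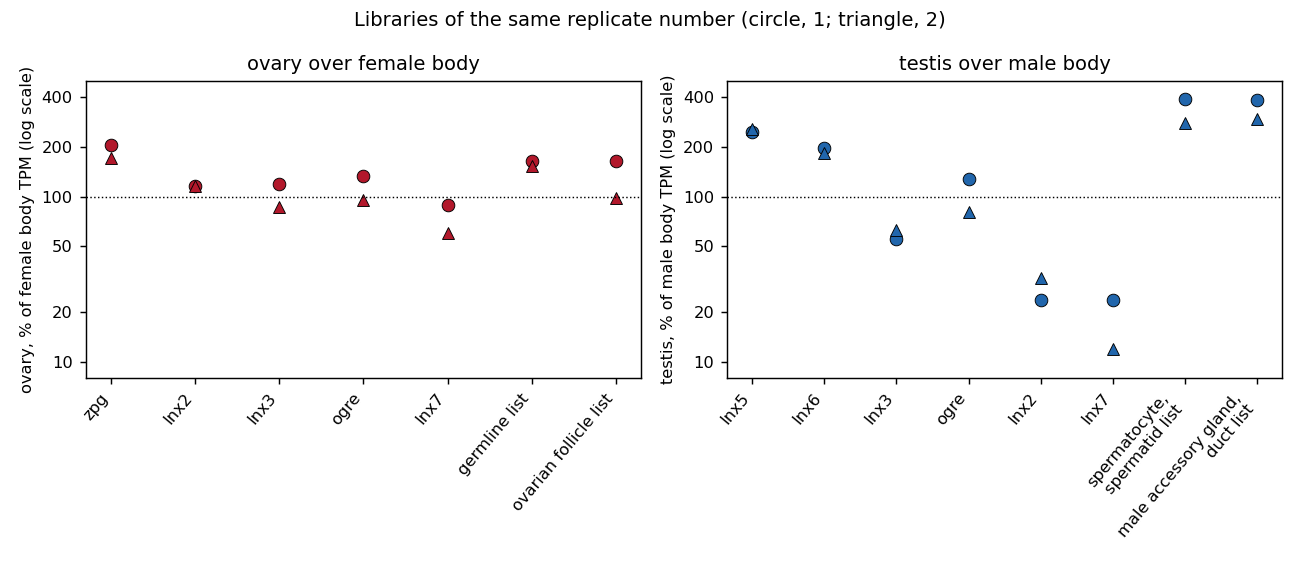
TPM in the gonad as a percent of TPM in the body of the same sex and replicate number (vertical axis, log scale), for innexins and for summed marker lists, with a dotted line at equal levels. Libraries were not scaled to each other. *zpg* (206 and 170.4%) lies above the line in females and *Inx5* (245 and 255%) and *Inx6* (197 and 183%) in males, whereas *Inx2* and *Inx7* lie below it in males.

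Genes of other junctions of epithelial cells were set beside the innexins. Adherens junctions hold epithelial cells together, and 9 of 13 genes of this list were higher and 0 lower in the ovary than in the testis, beside 60.1% of all genes called in either direction. Their median log2 fold change was 1.98, beside 1.58 for the 7 innexins and 0.07 for all genes. Those with the largest changes were *ed* (2.72, adjusted p = 0.0307), the beta-catenin *arm* (2.58, adjusted p = 0.0101), *cno* (2.22, adjusted p = 0.0267) and *par-6* (2.10, adjusted p = 0.0173). In the testis, 6 of 13 were lower than in the male head, *sdt* (-3.30) and *p120ctn* (-2.40) first among them, beside 56.9% of all genes called. Between bodies 2 of 13 were higher in females, *par-6* (1.82) and *sdk* (1.65), beside 42.5% of all genes called, and between heads 0 of 13 passed in limma. This list and the septate junction list below were fitted only on TPM without scaling between libraries. With the median of ratios, the median of all genes between the ovary and the testis was -0.67. How that scaling moves the junction lists was not tested.

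Septate junctions seal the space between cells, and of the 22 genes of this list, 5 were higher and 3 lower in the ovary than in the testis, beside 60.1% of all genes called. The basolateral polarity genes *l(2)gl* (3.21) and *dlg1* (2.69) were higher, and *nrv2* (-3.42), a subunit of the sodium pump, and *Ssk* (-2.17) were lower. Between bodies 2 of 22 were higher and 1 lower in females, beside 42.5% of all genes, and between heads 0 of 22 passed in limma. *Ssk*, *Tsp2A* and *mesh* build the smooth septate junctions of the gut. They were the 3 of 22 genes called between the ovary and the female body, beside 11.6% of all genes, and were lower in the ovary (-4.52, -3.94 and -3.64). The same 3 of 22 were called between the testis and the male body, beside 36.5% of all genes, and were lower in the testis (-2.70, -3.40 and -1.96). *Inx7* was lower in the second of these comparisons, and in the first its difference was -0.41 ± 0.50 (adjusted p = 0.714).

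For each tested innexin, the genes whose log2(TPM + 1) followed it most closely over the 12 libraries were sought among all genes tested. These values describe libraries that share tissues and scaling. *zpg* was followed by *piwi* (r = 0.999), *mbm* and *nos* (r = 0.998), of which *piwi* and *nos* act in germ cells, and *Inx5* by *CR43410*, *CG18808* and *CG1894* (r = 0.999 to 0.998). *shakB* was followed by *repo*, the glial transcription factor (r = 0.999), by *VAChT*, the vesicular acetylcholine transporter, and by *CG11221*. *Inx2* was followed by *sxc* (r = 0.994), *CG7686* and *galectin*, and *Inx3* by *emc* (r = 0.987), *Flo1* and *CR46064*. *Inx7* (*GstT3*, r = 0.975, *CG17597* and *MSBP*) and *ogre* (*Tsp26A*, r = 0.965, *Ect3* and *CG5191*) had lower values. Within the family, *ogre* followed *Inx3* (r = 0.89) and *Inx2* (r = 0.82), *Inx7* followed *zpg* (r = 0.75), and *Inx2* and *Inx5* ran opposite to each other (r = -0.88).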

How the data were processed

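PolyA libraries of 6 groups were analysed, and 25 other samples of the series (other RNA fractions and PAR-CLIP) were not analysed here. The authors trimmed reads with cutadapt, mapped them to dm6 with STAR version 2.6.1a and annotated genes with Ensembl release 88. The processing notes also name StringTie version 2.0 and Cufflinks. Each deposited table gives, per gene, the authors' TPM (summing to 1000000), FPKM and coverage signal. FPKM served as an alternative, and coverage was not tested.

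Log2(TPM + 1) of 12882 genes, those averaging 1 TPM or more, was fitted with limma version 3.58.1 (R version 4.3.3, trended eBayes, two-sided) in 1 model of 12 libraries with a mean per group, with Benjamini-Hochberg adjustment within each contrast and a threshold of 0.05. The steps were tested on simulated data. Deviations from group means correlated between same-numbered libraries (r of 0.345 to 0.769, above 0.1 in 15 of 15 pairs of groups), so that the numbers, taken from the labels, pair the libraries. What they share is not stated. Sequences came from the RefSeq Release 6 genome.

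All 8 innexins were named. From each other list the called genes with the largest changes were named, up to 4, and for each tested innexin the 3 genes most alike. The members and lists were chosen with earlier results of these data known.

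Alternatives were a pseudocount of 0.1, no filter on low values, FPKM, scaling by the median of ratios (6381 genes at 1 TPM or more in every library), leaving out the 37 mitochondrial genes, the replicate block, only the libraries compared, and leaving out each replicate. Counts of the marker and junction lists were made only in the fit without these alternatives.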

Additional observations from a re-analysis of the deposited data

Results flagged for a closer look

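The sex difference of 4 innexins differed between tissues by the test of the difference itself, on the log2(TPM + 1) scale. Gonads differed from heads for *zpg* by 6.20, for *Inx5* by -4.67, for *Inx2* by 3.33 and for *Inx7* by 1.93. That is 4 of 7 innexins, beside 48.5% of all genes. Bodies differed from heads for *zpg* by 5.55 and for *Inx5* by -3.38, which is 2 of 7, beside 32.5% of all genes. The comparisons share the head libraries. The value of *Inx7* is the weakest of these, since no fit with a library left out kept its call. The value of *Inx2* was 1.74 with the median of ratios, where it still passed (adjusted p = 0.00055).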

How the results depend on the processing

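With 2 libraries a group and no read counts, small differences of low genes could not be resolved. Over the 84 differences of single genes (7 innexins in 12 comparisons), 23 of 588 values under another setting changed sign, 15 of them with the median of ratios, as did 46 of 420 values with a library left out. The sign of each of the 30 called differences was kept in all of these fits. Among the 44 differences that comprise all sex differences of single tissues and the other calls, 11 of 308 values under another setting gained and 13 lost the call, and 1 gained and 21 lost it of 200 with a library left out. The calls of *zpg* in both sex differences and of *Inx5* in both were kept in every setting run.

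Counts of innexins passing moved as follows, with the share of all genes passing in brackets. These shares moved as well. With FPKM there were 4 between the female body and the male body (64.4%) and 6 between the male head and the male body (59.0%). There were 2 between the ovary and the female body (16.8%) and 3 for gonads against bodies (19.2%). With the median of ratios there were 6 between the female head and the female body (47.0%) and 7 between the male head and the male body (60.7%). There were 1 between the ovary and the female body (16.3%), 6 between the ovary and the female head (51.9%) and 3 for gonads against bodies (25.3%). Without mitochondrial genes these were 5 (44.8%), 6 (61.2%), 1 (16.7%), 5 (52.3%) and 2 (9.29%) in the same order, and 4 (60.7%) between the female body and the male body. With the replicate block, the counts were 5 between the female body and the male body (66.0%) and 6 between the male head and the male body (60.2%). They were 1 between the ovary and the female body (17.2%), 4 for bodies against heads (55.9%) and 1 for gonads against bodies (21.7%). Between the testis and the male body, 2 passed with no filter on low values (33.5%), 2 with a pseudocount of 0.1 (18.2%) and 0 with only the libraries compared (13.6%). The block changed no other count by over 1.5 times.

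Counts of innexins passing in each comparison are not given for fits with a library left out, since these leave a group without replicates. Among the female against male differences of single tissues, the sign changed with the median of ratios for *Inx3* (-0.053), *Inx7* (-0.39) and *ogre* (-0.013) in bodies and *ogre* (-0.38) in gonads, and without mitochondrial genes for *shakB* (0.028) in gonads. With the median of ratios it also changed for gonads against heads (*Inx3* -0.035, *ogre* -0.55, *shakB* -0.18), bodies against heads (*Inx3* -0.29, *Inx7* -0.58, *ogre* -0.19), gonads against bodies (*ogre* -0.36), the ovary against the female body (*Inx2* -0.097, *Inx3* -0.27, *ogre* -0.15) and the ovary against the female head (*Inx2* -1.24, adjusted p = 0.00056). With a library left out, female against male heads ranged from -0.33 to 0.35 for *Inx2*, -0.18 to 0.31 for *Inx3*, -0.063 to 0.23 for *Inx7*, -0.60 to 0.61 for *ogre* and -0.62 to 0.044 for *shakB*. Bodies ranged from -0.36 to 1.28 for *Inx7* (which passed without male body replicate 2, adjusted p = 0.0366) and -0.69 to 0.060 for *shakB*, and gonads from -0.16 to 0.12 for *shakB*. The cause was not tested.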
